A study of Mus musculus with 3 samples.

Results

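The genes described here are 10 hypoxia response genes, Vegfa, Bnip3, Bnip3l, Egln1, Egln3, Ndrg1, Ankrd37, P4ha1, P4ha2 and Ero1l, among the 25638 gene names of the count table. They are known targets of the hypoxia-inducible factors (HIF). The list was chosen by known function with earlier results of these libraries in view, that is, with knowledge of their read counts in all 3 libraries. Their levels and differences are therefore a description and not a test of the list. All 10 were found in the table.

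The samples were CD8+ T cells sorted from spleens of untreated mice of wild-type genotype, as naive, central memory and effector memory cells, with RNA-seq of total RNA and 1 library for each. The sources used here do not give the age, sex or strain of the mice, the sort markers or how many mice went into a library. With 1 library a group, no difference has a replicate check, no p-value was computed, and intervals are 95% intervals that cover counting error only.

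HIF is a transcription factor made of an oxygen-labile alpha subunit and the stable partner ARNT. In oxygenated cells, prolyl hydroxylases of the EGLN family mark the alpha subunit, and the VHL ubiquitin ligase then leads it to degradation. When oxygen is short the alpha subunit persists, pairs with ARNT and binds the DNA core ACGTG or GCGTG near its targets. In activated T cells HIF-1 alpha is also raised by antigen receptor and cytokine signals, and it is known there as a driver of glycolysis and effector function.

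The HIF core in the promoters of the members is shown first, because it is what the pathway reads. RefSeq promoters (mouse GRCm38.p6, 250 bases before to 50 after the transcription start) were found for 8 of the 10 members, in 9 windows since Vegfa has 2. Bnip3l and Ndrg1 had no entry. The core ACGTG, sought on both strands (CACGT is its reverse complement), lay in 8 of the 9 windows, and in at least 1 window of each of the 8 genes. It was found in 19.6% of all 32851 promoter windows and in 26.4% of the 10247 windows of genes at 5 CPM (read counts scaled to library size) or more in any library. Among windows of genes called higher in effector memory than in naive, 25.4% held it. The form GCGTG (reverse complement CACGC), counted separately, lay in 7 of the 9 windows. It was found in 32.4% of all windows, in 51.9% of those of genes at 5 CPM or more and in 50% of those of genes called higher. A match is a description of letters, not a binding site, and HIF binding was not measured.

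For each gene the core nearest to the start and wholly before it is given below with up to 12 bases on either side, on the strand of the gene, 5′ to 3′. Capitals mark the core, which reads ACGTG where it lies on the gene's strand and CACGT where it lies on the other.
Bnip3: cgcacgcgccgcACGTGccacacgctccc
P4ha2: tgtgcatcgcatACGTGcagcgcgtggcg
Egln1: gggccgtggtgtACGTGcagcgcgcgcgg
Egln3: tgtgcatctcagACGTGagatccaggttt
Ankrd37: cagtgtttgggtACGTGa
Vegfa: ggagtgcgtgccCACGTcagagagcaaca
Ero1l: cgcgcgccgctgCACGTccgcaggggagg
P4ha1: tgtgacagagcgCACGTagcgagggctg

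These stretches lie at chr7:138909597-138909625 (minus strand) for Bnip3, chr11:54100834-54100862 (plus) for P4ha2 and chr8:124949306-124949334 (minus) for Egln1. Those of Egln3 and Ankrd37 lie at chr12:54204087-54204115 (minus) and chr8:45999851-45999868 (minus). The Vegfa core belongs to its downstream start, at chr17:46025358-46025386 (minus), and the Ero1l and P4ha1 stretches lie at chr14:45318619-45318647 (minus) and chr10:59323268-59323295 (plus). The core began 107 bases before the start in Bnip3, 78 in P4ha2, 68 in Egln1, 63 in Ero1l, 16 in P4ha1 and 6 in Ankrd37. It lay farther away in Vegfa, 211 bases, and Egln3, 229 bases. Bnip3, P4ha2 and Ankrd37 each held 2 matches to ACGTG on counting both strands. In Bnip3 the printed stretch holds both of them, since a core on one strand there overlaps a core on the other.

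The labelled cells were checked against their markers. The naive library held 26876909 counts, the central memory library 35846315 and the effector memory library 33087462. The limit that a count of 0 allows, 3 counts, corresponds to 0.108, 0.0837 and 0.0938 CPM in this order. The 7 CD8 T cell markers were present in every library, but 3 were lower in effector memory than in naive: Cd8a at 1868, 1063 and 408 CPM in naive, central memory and effector memory, Cd8b1 at 1055, 540 and 276 CPM, and Cd5 at 168, 200.1 and 62.1 CPM. Cd44, a marker of antigen-experienced cells, stood at 2.95, 45.8 and 113 CPM in naive, central memory and effector memory, and Ccr7, a chemokine receptor for lymph node entry, at 373, 339 and 31.9 CPM. Klrg1, a marker of effector cells, was at 0, 2.62 and 0.782 CPM. The memory markers Il7r (522, 266 and 74.8 CPM) and Cxcr3 (5.93, 209 and 51.4 CPM) were lower in effector memory than in central memory, Il2rb stood at 180, 982 and 1535 CPM, and S1pr1, needed to leave lymph nodes, at 522, 317 and 29.6 CPM. Among 10 myeloid markers, Cd68 alone reached 5 CPM, at 21.1 CPM in effector memory, while Lyz2, Csf1r, C1qa and Adgre1 were at 0 there. The summed level of the myeloid list was 7.80, 8.04 and 25.4 CPM. B cell markers summed to 30.5, 6.17 and 2.81 CPM, dendritic cell markers to 3.02, 2.23 and 12.5 CPM, and erythroid and platelet markers to 5.03, 2.62 and 2.75 CPM. NK cell markers summed to 38.7, 128 and 82.6 CPM. Most of that was Eomes, which CD8 T cells also express, in naive and effector memory, while Klrb1c stood at 0.216, 33.0 and 1.91 CPM, Tyrobp at 0.395, 5.02 and 0.813 CPM, and Ncr1 and Klra8 had 437 and 132 counts in central memory and 0 in the other libraries. CD4 T cell markers summed to 7.73, 39.7 and 94.3 CPM, of which Zbtb7b made 1.33, 37.4 and 93.6 CPM and Cd4 2.12, 0.251 and 0.281 CPM. Stroma and endothelium markers other than Pecam1, which T cells also express, were each below 1 CPM. The libraries differed strongly in cell cycle genes: 20 mitosis genes summed to 34.7, 1135 and 7210 CPM. The part of these marker and cell cycle differences in the results below was not tested. In sorted bulk cells, more cells with a transcript and more transcript per cell cannot be told apart.

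Every member was most abundant in effector memory. Summed over the 10 genes, the naive library held 8623 counts, central memory 12884 and effector memory 84890, which is 309.9, 359.7 and 2654 CPM. Of the members, 5 reached 5 CPM in naive cells, 7 did so in central memory cells and 10 in effector memory cells. Vegfa, Ankrd37 and P4ha2 reached that minimum only in effector memory, so a comparison with that library could only show them higher there. Bnip3 (3.77 CPM) and Egln3 (3.88 CPM) were under it in naive alone. Comparisons with naive could therefore only show Bnip3 and Egln3 higher in memory cells.

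**Figure D1:**
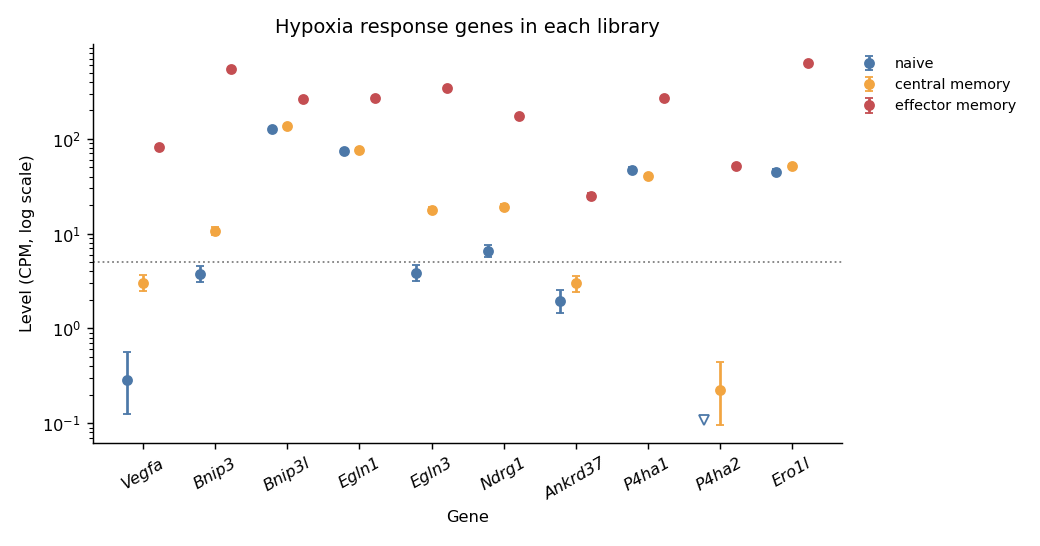
Level of each hypoxia response gene in the 3 libraries, in CPM on a log axis; points are single libraries, bars are 95% Poisson counting intervals, and the open triangle is a count of 0 drawn at the 3-count limit. The dotted line is the 5 CPM minimum, and the effector memory point is the highest for all 10 genes.

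Bnip3 and Bnip3l encode related proteins of the outer mitochondrial membrane that act as receptors for the removal of mitochondria by autophagy. Bnip3 (ENSMUSG00000078566.8, chromosome 7, 138890836 to 138909519) had 105, 383 and 17412 counts in naive, central memory and effector memory, or 3.77, 10.7 and 544 CPM. The effector memory library stood far above the others, and central memory was nearer to naive. Its ratio was 144 for effector memory against naive (interval 119 to 177), 50.9 against central memory (interval 46.0 to 56.5), and 2.83 for central memory against naive (interval 2.28 to 3.55). Bnip3l (ENSMUSG00000022051.15, chromosome 14, 66985239 to 67008877) had 3524, 4926 and 8359 counts, or 127, 138 and 261 CPM. It was the most abundant member per length in naive and had the smallest difference of the 10 between effector memory and naive. That ratio was 2.06 (interval 1.98 to 2.15), and on the log2 scale 1.05, falling to 0.95 with total counts and 0.94 with upper quartile factors, where it missed the 2-fold limit. Against central memory the ratio was 1.90 (interval 1.83 to 1.97).

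Per kilobase of exon the order of this pair was opposite in the libraries. Bnip3 stood at 1.67 CPM per kb in naive beside 32.8 for Bnip3l, and at 4.72 beside 35.6 in central memory. In effector memory Bnip3 stood at 240.4 CPM per kb and Bnip3l at 67.7. Bnip3 thus made up 4.83%, 11.7% and 78% of the pair's summed level per length. The counting intervals of the pair did not overlap in any library.

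Egln1 and Egln3 encode oxygen-dependent prolyl hydroxylases that mark the HIF alpha subunit for degradation, and both are HIF targets themselves, which closes a feedback loop. Egln1 (ENSMUSG00000031987.6, chromosome 8, 124908587 to 124949324) had 2074, 2732 and 8654 counts in naive, central memory and effector memory, or 74.5, 76.3 and 270.6 CPM. The naive and central memory levels could not be told apart, with a ratio of 1.02 whose interval, 0.966 to 1.08, holds 1. The sign of that small difference turns under total counts, DESeq2 size factors and upper quartile factors. Effector memory was 3.63-fold above naive (interval 3.46 to 3.81). Egln3 (ENSMUSG00000035105.5, chromosome 12, 54178981 to 54203860) had 108, 633 and 11000 counts, or 3.88, 17.7 and 344 CPM. Each library stood clear of the one before it. The ratio was 4.55 for central memory against naive (interval 3.71 to 5.64), 19.5 for effector memory against central memory (interval 18.0 to 21.1) and 88.6 for effector memory against naive (interval 73.3 to 108.1).

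Egln2, the family's remaining prolyl hydroxylase and no member of the list, showed no such difference, at 52.1, 67.4 and 54.9 CPM. Of the family's summed level per length, Egln3 made up 3.57%, 12.8% and 57.7% in the same order of libraries, Egln1 50.8%, 40.9% and 33.6%, and Egln2 45.6%, 46.4% and 8.75%. The leading EGLN transcript per length was therefore Egln1 in naive and Egln2 in central memory, at 24.1 CPM per kb beside 21.2 for Egln1. In effector memory it was Egln3, at 129 CPM per kb beside 75.3 for Egln1.

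**Figure D2:**
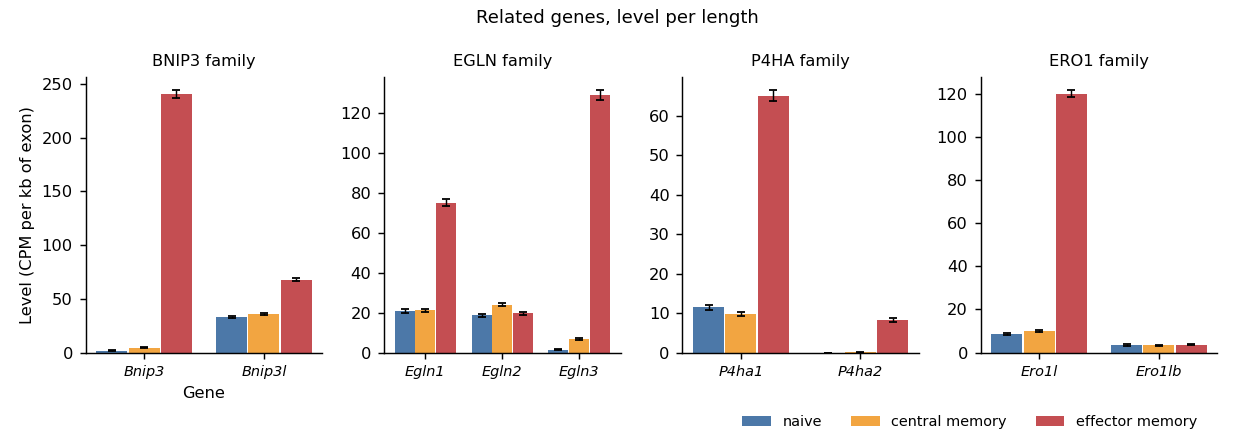
Level per kilobase of exon (CPM per kb) of related genes in the 3 libraries; bars are single libraries, with 95% Poisson counting intervals as error bars, and each family has its own linear axis from 0. Bnip3 and Egln3 are the lowest of their families in naive and the highest in effector memory, at 240.4 and 129 CPM per kb, while Egln2 and Ero1lb differ little.

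P4ha1 and P4ha2 encode the catalytic alpha subunits of collagen prolyl 4-hydroxylase, an enzyme of the endoplasmic reticulum that makes the hydroxyproline of collagen-like sequences. P4ha1 (ENSMUSG00000019916.14, chromosome 10, 59323296 to 59373304) had 1316, 1447 and 8552 counts in naive, central memory and effector memory, or 47.3, 40.4 and 267.4 CPM. Its central memory level lay below naive under each scaling tried, with a ratio of 0.854 (interval 0.792 to 0.921) that stays short of 2-fold. Effector memory was 5.65-fold above naive (interval 5.33 to 6.0). P4ha2 (ENSMUSG00000018906.14, chromosome 11, 54100095 to 54131665) had 0, 8 and 1643 counts, or 0, 0.223 and 51.4 CPM. It was at or near the detection limit in naive and central memory and plainly present in effector memory. With the naive count of 0 set to 3 counts, effector memory was 476.5-fold higher than naive, and the lower end of the counting interval was 387. It was 230-fold higher than central memory (interval 116 to 534). The share of P4ha2 in the pair's summed level per length was 0%, 0.363% and 11.2%, so P4ha1 led in all 3 libraries.

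Ero1l, named Ero1a in RefSeq, encodes the oxidase that reloads protein disulphide isomerase with oxidising equivalents during protein folding in the endoplasmic reticulum. The gene (ENSMUSG00000021831.9, chromosome 14, 45283087 to 45318771) had 1252, 1855 and 20297 counts in naive, central memory and effector memory, or 45.0, 51.8 and 635 CPM. It was the member with the most counts in effector memory, while naive and central memory lay close together. The ratio was 14.1 for effector memory against naive (interval 13.3 to 14.9) and 1.15 for central memory against naive (interval 1.07 to 1.24). Its paralogue Ero1lb stood at 23.4, 22.6 and 23.6 CPM. Ero1l made up 70.8%, 74.2% and 97.1% of the pair's summed level per length.

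Vegfa encodes vascular endothelial growth factor A, the secreted ligand that drives vessel growth. It (ENSMUSG00000023951.17, chromosome 17, 46016993 to 46032369) had 8, 109 and 2622 counts in naive, central memory and effector memory, or 0.288, 3.04 and 82.0 CPM. The naive level rested on 8 counts, and each library stood clear of the one before it. Effector memory was 285-fold above naive (interval 145 to 661) and 26.9-fold above central memory (interval 22.2 to 32.9). Central memory was 10.6-fold above naive (interval 5.19 to 25.1), the largest ratio among members in that comparison, but both levels were under 5 CPM and the gene was not called there.

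Ndrg1 encodes a cytoplasmic stress-response protein of the NDRG family. It (ENSMUSG00000005125.13, chromosome 15, 66929318 to 66969640) had 182, 684 and 5553 counts in naive, central memory and effector memory, or 6.54, 19.1 and 174 CPM. The libraries were again ordered from naive to effector memory without overlap of their intervals. Central memory was 2.92-fold above naive (interval 2.48 to 3.46) and effector memory 26.5-fold (interval 22.9 to 30.9). In its family, Ndrg2 was also higher in effector memory, at 8.48, 21.2 and 69.0 CPM, and Ndrg3 was lower, at 130, 93.9 and 52.3 CPM.

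Ankrd37 encodes a small ankyrin repeat protein. It (ENSMUSG00000050914.16, chromosome 8, 45996902 to 46005707) had 54, 107 and 798 counts in naive, central memory and effector memory, or 1.94, 2.99 and 25 CPM, the lowest effector memory level of the 10 in CPM. Effector memory was 12.9-fold above naive (interval 9.75 to 17.3). Central memory was 1.54-fold above naive (interval 1.10 to 2.18), with both levels under 5 CPM. Exons of Ankrd37 overlap those of Ufsp2 on the opposite strand, and whether strand was used in counting is not given, so reads of this pair cannot be told apart. Ufsp2 stood at 14.7, 18.2 and 53.2 CPM, a smaller ratio of 3.62 between effector memory and naive (interval 3.25 to 4.04). Antisense genes with overlapping exons also lie at Bnip3 (Gm45507) and Ndrg1 (Gm17035), and these were not analysed here.

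A member was called higher or lower in a comparison of 2 libraries when the higher one had at least 5 CPM, the ratio of CPM was at least 2 and its counting interval excluded 1. The rule is one of size. In effector memory against naive, 10 of 10 members were called higher and none lower, where 22.3% of the 10087 genes at 5 CPM were called higher and 15.6% lower. This contrast was in view when the list was chosen, so nothing is read from that count. Only the 5 members at 5 CPM or more in naive could have been called lower. The members' median log2 ratio was 4.27, beside 0.06 over all genes tested, and 7 members differed by at least 10-fold. By ratio Vegfa ranked 121st of 10087 genes, Bnip3 186th and Egln3 259th, while Bnip3l ranked 2175th. The ratio of P4ha2 is a bound and was not ranked.

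In effector memory against central memory, 9 of 10 members were called higher and none lower, with 14.8% and 12.8% of 9975 genes called in these directions. Only the 7 members at 5 CPM or more in central memory could have been called lower. The median log2 ratio was 3.4, beside -0.06 over all genes tested. Bnip3l was the exception, with its ratio of 1.90, and it passed the limit with DESeq2 size factors (log2 ratio 1.003). P4ha2 ranked 9th of the 9975 genes and Bnip3 71st.

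In central memory against naive, 7 members reached 5 CPM. Of these, Bnip3, Egln3 and Ndrg1 were called higher, no member was lower, and Bnip3l, Egln1, P4ha1 and Ero1l were not called, where 11.2% of 9737 genes were called higher and 5.12% lower. Bnip3 and Egln3 were under 5 CPM in naive, so neither could have been called lower. The median log2 ratio of the 7 was 0.20, beside 0.14 over all genes tested. Over all 10 members it was 0.84, with Vegfa, Ankrd37 and P4ha2 (at its bound) included below the minimum level. Those 3 calls rest on levels of 10.7 to 19.1 CPM in central memory, and with a minimum of 20 CPM none of them is made. The 2 comparisons against naive share that library, so their ratios are not independent.

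**Figure D3:**
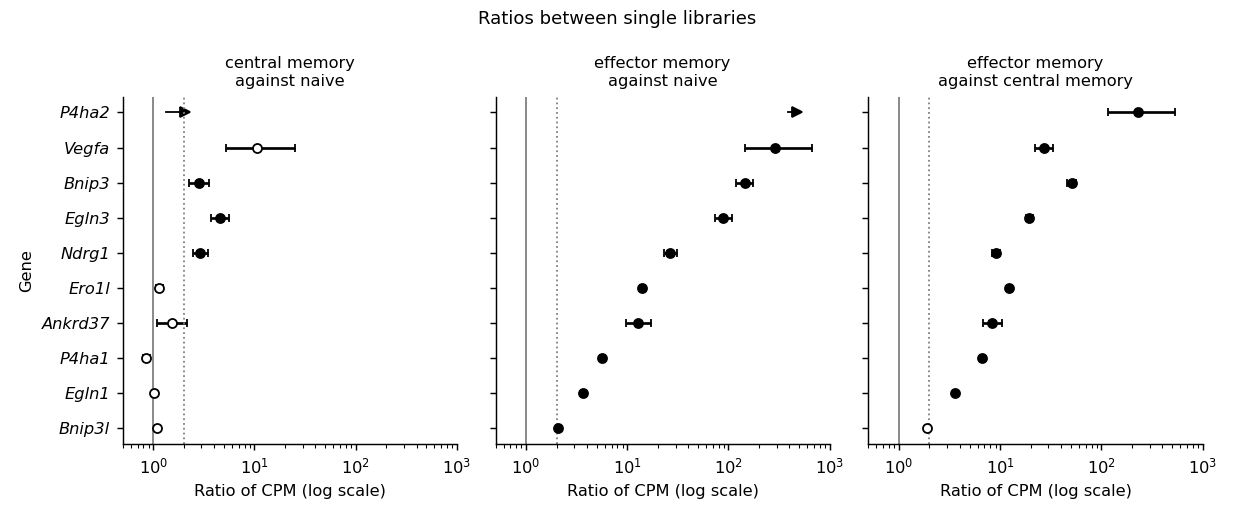
Ratio of CPM between single libraries for each member, on a log axis, with 95% counting intervals. Filled circles were called higher and open circles were not. Arrowheads are ratios with a naive count of 0 set to 3 counts, drawn solid whether called or not. That of P4ha2 in central memory against naive was not called. The solid line is a ratio of 1 and the dotted line a ratio of 2. In effector memory against naive all 10 lie above 2, from 2.06 for Bnip3l to 476.5 for P4ha2, whose interval starts at 387.

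The members differed in where central memory lay between the other libraries. On the log2 scale from naive (0%) to effector memory (100%), central memory lay at 41.7% for Vegfa, 33.8% for Egln3, 32.7% for Ndrg1 and 20.9% for Bnip3. It lay at 16.9% for Ankrd37, 11.8% for P4ha2 with naive set to 3 counts, and 11.4% for Bnip3l. It lay at 5.31% for Ero1l, 1.78% for Egln1 and -9.10% for P4ha1. The positions of Bnip3l and Egln1 rest on differences from naive that the scaling can turn: the log2 ratio of Bnip3l between central memory and naive was 0.12, and it turned sign with upper quartile factors. The genes with the highest naive CPM (Bnip3l, Egln1, P4ha1 and Ero1l) were the 4 with the lowest positions.

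The order of levels per length also differed. In naive it ran from Bnip3l (32.8 CPM per kb) through Egln1 (20.7), P4ha1 (11.5) and Ero1l (8.51) to Bnip3 (1.67), Egln3 (1.46), Ankrd37 (1.26), Ndrg1 (0.992), Vegfa (0.0671) and P4ha2 at 0. The intervals of Bnip3 and Egln3, of Egln3 and Ankrd37, and of Ankrd37 and Ndrg1 overlapped. In central memory Bnip3l and Egln1 again led, and P4ha1 (9.82) and Ero1l (9.80) could not be ordered. In effector memory Bnip3 led, followed by Egln3 (129), Ero1l (120.1), Egln1 (75.3), Bnip3l (67.7) and P4ha1 (65.0), with overlapping intervals for the last 2 of these. Ndrg1 (26.3), Vegfa (19.1), Ankrd37 (16.2) and P4ha2 (8.23) followed.

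**Figure D4:**
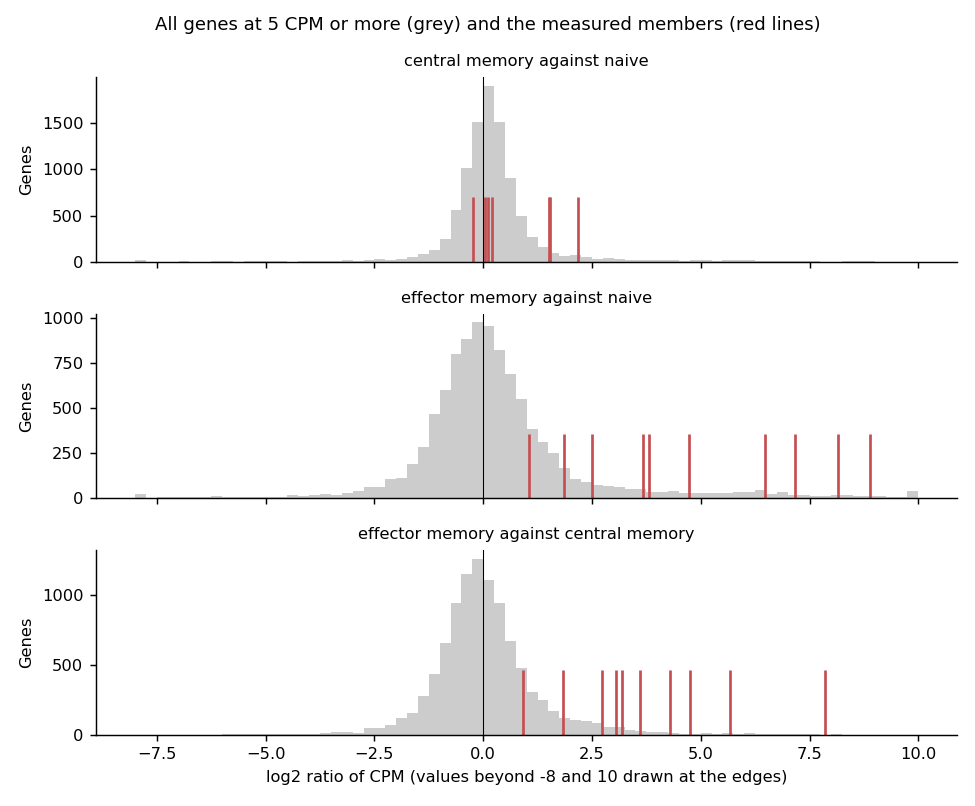
Number of genes by log2 ratio of CPM in the 3 comparisons, for all genes at 5 CPM or more in either library (grey, bins of 0.25), with each measured member as a red line. In central memory against naive 4 of the 7 members lie near 0, and in both comparisons with effector memory all 10 lie to the right of 0.

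The listed HIF subunits and regulators, which leave out the members Egln1 and Egln3, had a smaller median difference than the HIF target lists described next. Egln1 and Egln3, also oxygen sensors, were 3.63-fold and 88.6-fold above naive in effector memory. Of 20 HIF subunits and regulators, 18 were measured in effector memory against naive, with 5 higher, 2 lower and 11 in neither direction (median log2 ratio 0.49). Over all genes tested, 22.3% were higher and 15.6% lower in that comparison. Hif1a, the main oxygen-labile subunit in T cells, stood at 98.2, 136 and 198 CPM in naive, central memory and effector memory. Its log2 ratio between effector memory and naive was 1.01, and it fell to 0.98, 0.91 and 0.91 with DESeq2, total count and upper quartile scaling, where the call is lost. The partner Arnt was at 95.3, 83.0 and 57.7 CPM (log2 ratio -0.72, not called). Vhl was at 22.7, 28.9 and 30.4 CPM and Hif1an, the asparagine hydroxylase that limits HIF activity, at 74.7, 134 and 71.1 CPM.

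The alternative alpha subunits were low in naive and central memory. Epas1, which encodes HIF-2 alpha, stood at 2.16, 1.31 and 18.3 CPM, and Hif3a at 0.252, 0.670 and 5.69 CPM. Both reached 5 CPM only in effector memory, so a comparison with that library could only show them higher there. Elob, of the VHL ligase, and the chaperone Hsp90aa1 were the remaining higher genes, with log2 ratios of 1.56 and 1.75. The lower genes were Siah1a, a ubiquitin ligase (log2 ratio -3.29), and Crebbp, a HIF coactivator (log2 ratio -1.65). Siah1a stood at 4.32 CPM in effector memory, under the minimum, so it could only be called lower there. Siah1a has a near-identical copy, so its reads may be split. In central memory against naive, 16 of these genes were measured, none was higher and Siah1a was lower, where 11.2% of all genes were higher and 5.12% lower.

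Other HIF targets were mostly higher in effector memory, though not all. Among all genes tested, 22.3% were called higher in effector memory than in naive and 15.6% lower. Both lists of targets were chosen with earlier results of these data known, so their counts are a description and not a test. Of 20 genes of glucose uptake and glycolysis, 18 were above naive by the rule, 0 were below and 2 were not called, with a median log2 ratio of 3.53. Aldoc, an aldolase, stood at 0.0719, 9.07 and 179 CPM, Slc16a3, which exports lactate, at 1.22, 11.8 and 445 CPM, Tpi1 at 35.4, 128 and 1797 CPM and Hk2 at 4.92, 24.0 and 231 CPM. The naive level of Aldoc rested on 2 counts. The 2 not called were Pdk1, the kinase that restrains pyruvate dehydrogenase, at 409, 238 and 379 CPM, and Pfkfb3. Pfkfb4, which stands in both lists of targets, had a log2 ratio of 1.02 and loses its call under total counts (0.92), DESeq2 (0.99) and upper quartile scaling (0.92). Of 40 other HIF targets, 31 were measured, 19 higher, 1 lower and 11 in neither direction (median log2 ratio 1.86). In the glycolysis list Aldoc, Slc16a3, Hk2 and Pfkfb4 were under 5 CPM in naive. In the list of 40, Anxa2, Bhlhe40, Plod2, Ak4, Stc2, Hmox1, Car9, Angptl4 and Pfkfb4 were under it. Comparisons with naive could only show these genes higher in memory cells.

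The largest differences among those 40 were in Anxa2, an annexin, Bhlhe40, a transcriptional repressor, Plod2, a lysyl hydroxylase, and Ak4, a mitochondrial adenylate kinase, with log2 ratios of 8.37, 8.15, 7.93 and 6.86. Nt5e, which encodes the ectonucleotidase CD73, was lower, at 79.1, 69.2 and 15.0 CPM. Kdm3a, a histone demethylase and known HIF target chosen here after its value was seen, was at 171, 176 and 285 CPM and was not called. Adm and Epo, also well-known targets, had no count in any library. In central memory against naive, 5 of 19 measured genes of glucose uptake and glycolysis were higher, and 7 of 27 other HIF targets were higher with Cxcr4 lower. Over all genes tested, 11.2% were higher and 5.12% lower there.

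Genes that work beside the members are given next. Between effector memory and naive, 22.3% of all genes tested were higher, 15.6% lower and 62.1% called in neither direction. Of 19 measured mitophagy and autophagy genes, 3 were higher in effector memory than in naive, 0 lower and 16 not called (median log2 ratio 0.20). These were Gabarapl1 (1.76, 56.8 and 69.4 CPM), Optn (1.15, 3.13 and 19.1 CPM) and Fkbp8, whose log2 ratio of 1.04 falls to 0.94 with total counts. Gabarapl1 and Optn were under 5 CPM in naive and could only be called higher against it. Pink1 stood at 52.7, 123 and 57.2 CPM and Fundc1, a mitophagy receptor that does not belong to the BNIP3 family, at 27.7, 28.9 and 25.8 CPM. Both were chosen after their values were seen.

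Of 16 measured genes of collagen hydroxylation and oxidative folding, 5 were higher, 0 lower and 11 not called, with a median log2 ratio of 0.53. Among all genes tested, 22.3% were higher and 15.6% lower. Plod2 and Prdx4 were under 5 CPM in naive and could only be called higher against it. Plod2, which acts on collagen, stood at 0.719, 15.9 and 175 CPM. Prdx4, a peroxiredoxin of the endoplasmic reticulum, stood at 0.827, 6.45 and 34.2 CPM. P4hb, the beta subunit that pairs with P4ha1 and P4ha2 and serves as protein disulphide isomerase with Ero1l, stood at 174, 227 and 662 CPM. Pdia3 and Pdia6 had log2 ratios of 1.33 and 1.23. Hspa5, the main chaperone of the unfolded protein response, chosen after its value was seen, stood at 440, 260 and 508 CPM and was not called.

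Of the VEGF family and its receptors, Vegfb stood at 9.02, 9.52 and 29.6 CPM and Nrp1, a co-receptor, at 0.467, 7.06 and 20.5 CPM, both higher in effector memory. Nrp2 was lower, at 10.1, 0.112 and 0 CPM. Nrp1 was under 5 CPM in naive and Nrp2 in effector memory, so each could only be called in the direction seen. The signalling receptors Flt1 and Kdr had at most 1 count in any library. All 20 mitosis genes were higher in effector memory than in naive (median log2 ratio 8.71) and in central memory than in naive (5.69). The shares of all genes tested called higher were 22.3% and 11.2%. Only Top2a (9.70 CPM) and Cdc20 (5.32 CPM) reached 5 CPM in naive. The remaining mitosis genes could only be called higher against naive.

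**Figure D5:**
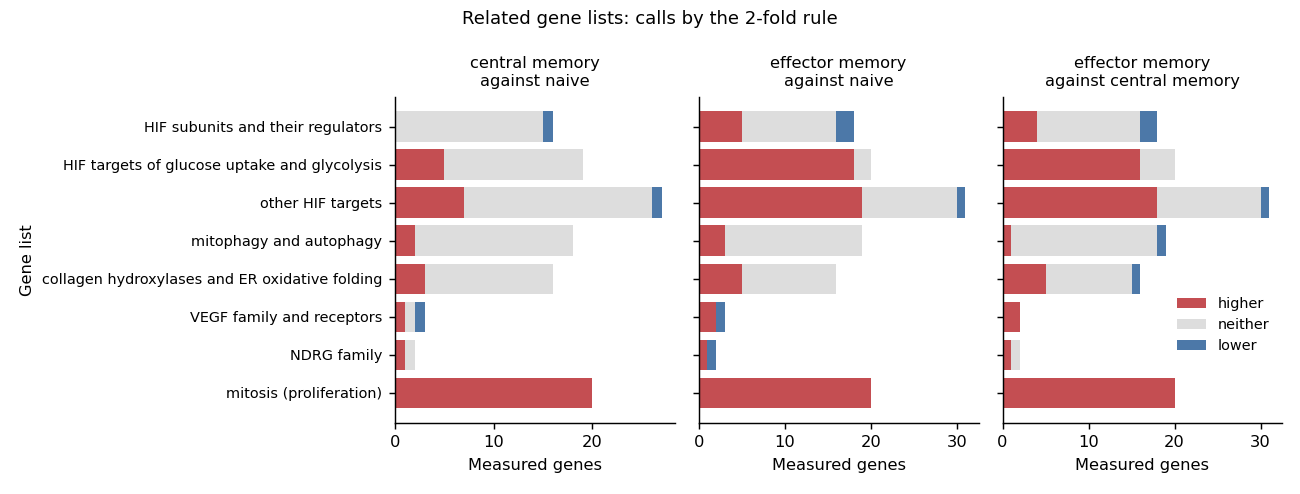
Number of measured genes (5 CPM or more in either library) of 8 related lists called higher (red), lower (blue) or in neither direction (grey) in the 3 comparisons. In effector memory against naive the glycolysis list has 18 of 20 genes higher, while the mitophagy list has 3 of 19. Among all genes tested there, 22.3% were higher. A gene under 5 CPM in either library could only be called in the direction of the other.

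Genes with the most similar pattern to each member were sought by the Euclidean distance between log2 CPM profiles over the 3 libraries, each centred on its mean, among 8112 other genes at 20 CPM or more. With 3 libraries such likeness is weak. A count of 0 was set to 3 counts, which fixes the naive level used for P4ha2, Dmwd, Emp1 and Mgat3. Vash1 had 3 naive counts, so distances with these genes depend on that setting or on few reads. Bnip3l had 348 genes within 0.25 on the log2 scale, with Snx5 (0.0048) and Kmt5a (0.0097) the nearest, and Egln1 had 42, with Rpa3 and Ska2 the nearest (0.07 each). Bnip3 and P4ha2 had none that near: Dmwd (0.42) and Lmna (0.63) were closest to Bnip3, and Ifitm3 (0.37) and Emp1 (0.43) to P4ha2. The nearest to Vegfa were Vash1 (0.22) and Mgat3 (0.31), and to Egln3 Capn5 (0.19) and Tnfrsf9 (0.22). The nearest to Ndrg1 were Ccdc18 (0.10) and Slc9a5 (0.22), and to Ero1l Basp1 (0.08) and Itsn1 (0.12). Rasgrp4 (0.05) and AC160637.1 (0.10) were closest to P4ha1. The glucose transporter Slc2a3 (0.08), at 79.6, 113 and 1003 CPM, and the cholesterol synthesis gene Hmgcs1 (0.10) were closest to Ankrd37.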

How the data were processed

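The deposited table holds raw read counts for each gene name in 3 columns, TN, TCM and TEM, read here as the abbreviations of naive, central memory and effector memory. Per the submitters' processing notes, the tools were featureCounts 1.5.0-p3, HISAT2 2.0.5 and CASAVA, and the build was mm10. The sources used here do not give the annotation, the strand setting or what was done with reads of several loci, so genes with near-identical copies, such as many glycolysis genes, are uncertain.

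Counts were scaled to CPM by effective library size with TMM factors (edgeR 4.0.16, R 4.3.3). Comparisons were ratios of CPM between single libraries, with exact (Clopper-Pearson) 95% counting intervals. A count of 0 was set to 3 counts for a bound. Levels in single libraries have 95% Poisson intervals. Levels per length used the union of exons in GENCODE M21 (GRCm38), where 98.7% of the gene names were found, and coordinates are from it. The rule for calls was first checked on simulated counts. Up to 4 called genes with the largest effector memory to naive differences were named from each list, with the HIF regulators throughout. Other genes were named after their values were seen. Members and lists were chosen with earlier results of these data known. Alternatives were total counts, DESeq2 1.42.0 and upper quartile scaling, minimum levels of 1 and 20 CPM or none, minimum ratios of 1.5 and 4, and log2(CPM + 1). Ratios and intervals were computed in Python 3.11.15 (SciPy 1.17.1, pandas 2.3.3, NumPy 2.4.6).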

Additional observations from a re-analysis of the deposited data

How the results depend on the processing

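The counts of members called higher in both comparisons with effector memory stayed within 1.5 times under all 9 alternatives, and no member was called lower under any. In central memory against naive the 3 calls became 0 at a minimum of 20 CPM, 1 (Egln3) at a minimum ratio of 4, and 5 with no minimum, where Vegfa and P4ha2 were added. Of 270 member results, 255 kept their call and none reversed. Upper quartile factors moved the median of all genes by -0.12 (log2) in central memory against naive and -0.10 in effector memory against naive, and DESeq2 factors by -0.11 in the former.

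Over all genes, the counts that moved by more than 1.5 times did so by the construction of the rule. In central memory against naive, those higher were 544 at 20 CPM, 2143 at a ratio of 1.5, 509 at a ratio of 4 and 2020 with no minimum, from 1092. Those lower were 937 at 1 CPM, 286 at 20 CPM, 1051 at a ratio of 1.5, 193 at a ratio of 4 and 1540 with no minimum, from 499. In effector memory against naive, those higher were 1133 at a ratio of 4 and 3566 with no minimum, from 2247, and those lower were 2649 at a ratio of 1.5, 524 at a ratio of 4 and 2596 with no minimum, from 1576. In effector memory against central memory, those higher were 2396 at a ratio of 1.5, 635 at a ratio of 4 and 2830 with no minimum, from 1479, and those lower were 2528, 289 and 1980 from 1273.

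No paired analysis was possible because each group has 1 library. For the same reason no library was left out. Depth limits the naive values of P4ha2 and Vegfa, at 0 and 8 counts.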
